A study of Mus musculus with 8 samples.

Results

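Interferon beta (IFNb) acting for 7 h on resting CD8+ T cells was compared with no treatment across 19755 genes. The comparison used 3 of the 8 arrays of the study: 1 array labelled 7 h IFNb and both untreated arrays. For each gene the log2 signal at 7 h minus the mean log2 signal of the untreated arrays was taken, with 1 probe per gene, the brightest among probes well above background on 2 or more arrays. The RNA came from CD8+ T cells of the spleen, taken from OT-I TCR tg mice (transgenic for a T cell receptor, TCR) on the C57BL6 background, in which most T cells carry 1 receptor for the ovalbumin peptide SIINFEKL. The cells were purified magnetically to a stated 90 to 97% and cultured in serum-containing medium. Signals are deposited linear intensities, scaled so that the 75th percentile is equal on all arrays, and are compared within a probe only. The labels do not say how long untreated cells were cultured, what dose of IFNb was used or how many animals were pooled. Beside this comparison stand the array with 2 h of IFNb alone, which is set against the same untreated arrays, and a pair of other arrays from cells whose TCR was engaged for 6 h with streptamers of SIINFEKL, without IFNb or with 1 h of IFNb before.

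IFNb is a type I interferon, made by infected and sensing cells. It binds the receptor chains IFNAR1 and IFNAR2, whose kinases JAK1 and TYK2 phosphorylate STAT2 among other proteins. STAT2 and IRF9 are parts of the complex ISGF3, which binds the interferon-stimulated response element (ISRE) in the promoters of antiviral genes. In CD8+ T cells type I interferon is known to act beside antigen and costimulation as a further signal for expansion and effector function, and to hold lymphocytes in lymphoid organs through CD69.

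The promoters of the genes that differed most carried the ISRE core (GAAA, any 2 bases, GAAA) far more often than other promoters. RefSeq sequences of build GRCm38.p6, from 250 bases before to 50 bases after each annotated start, were searched on both strands, and 12034 measured genes had 1 or more promoters. The core stood in 39 of 87 promoters (44.8%) of genes over 16-fold higher at 7 h. It stood in 11.4% of 306 promoters of genes 4 to 16-fold higher, in 5.11% of those 2 to 4-fold higher, in 3.20% of all 15147 promoters, and in 2.16% of 972 promoters of genes at least 2-fold lower. The GAS core TTCNNNGAA, another element of interferon-responsive promoters, stood in 13.8% of the promoters of genes over 16-fold higher and in 7.27% of all, and 9 of the former promoters held both cores. A match describes these letters in this window and shows no binding. The 12 stretches printed here run 5′ to 3′ along the gene's strand and end before the start site, with the core in capitals on either strand (TTTC, any 2 bases, TTTC is its reverse complement). They show single and repeated cores in effectors (Ifit1, Ifit3, Isg15, Rsad2, Cxcl10, Bst2, Gbp2, Ddx60), in the signal transducer Stat2, in the feedback inhibitor Socs1, in the transcription factor Eomes and in Fosl2, a gene that was lower.
Ifit1, chr19:34640760-34640838, plus strand: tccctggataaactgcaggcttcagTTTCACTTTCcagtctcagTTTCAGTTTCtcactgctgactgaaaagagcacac
Ifit3, chr19:34583348-34583441, plus strand: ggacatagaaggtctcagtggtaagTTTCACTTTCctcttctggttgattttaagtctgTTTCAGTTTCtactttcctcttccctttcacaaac
Isg15, chr4:156200850-156200921, minus strand: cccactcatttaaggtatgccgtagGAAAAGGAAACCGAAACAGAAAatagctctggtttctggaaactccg
Rsad2, chr12:26456538-26456597, minus strand: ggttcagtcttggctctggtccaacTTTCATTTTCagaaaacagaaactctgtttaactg
Cxcl10, chr5:92349068-92349127, minus strand: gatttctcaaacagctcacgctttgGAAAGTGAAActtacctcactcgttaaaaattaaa
Bst2, chr8:71537562-71537627, minus strand: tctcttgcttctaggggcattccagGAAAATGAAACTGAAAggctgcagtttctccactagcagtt
Gbp2, chr3:142620579-142620638, plus strand: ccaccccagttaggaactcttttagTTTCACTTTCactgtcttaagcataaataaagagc
Ddx60, chr8:61928009-61928086, plus strand: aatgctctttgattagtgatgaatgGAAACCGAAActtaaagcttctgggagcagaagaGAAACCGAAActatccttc
Stat2, chr10:128270251-128270310, plus strand: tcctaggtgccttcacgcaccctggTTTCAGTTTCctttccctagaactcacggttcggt
Socs1, chr16:10785579-10785644, minus strand: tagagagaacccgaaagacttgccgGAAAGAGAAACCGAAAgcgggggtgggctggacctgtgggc
Eomes, chr9:118478010-118478069, plus strand: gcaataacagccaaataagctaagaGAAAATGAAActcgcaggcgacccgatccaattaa
Fosl2, chr5:32136226-32136285, plus strand: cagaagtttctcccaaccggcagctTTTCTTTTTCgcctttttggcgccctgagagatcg
In Isg15, Bst2 and Socs1 the capitals cover overlapping matches, 3 in Isg15 and 2 in each of the others. The matches of Ifit1 lay between 104 and 76 bases before the start site.

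**Figure D1:**
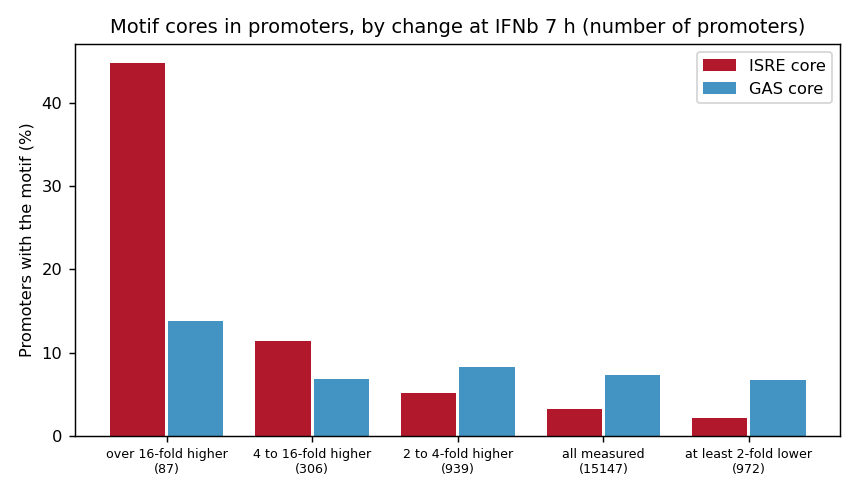
Share of RefSeq promoters holding the ISRE core (red) or the GAS core (blue), in percent, by the change of the gene at 7 h of IFNb, with the number of promoters under each set. The ISRE share falls from 44.8% over 16-fold to 3.20% over all measured promoters, while the GAS share lies between 6.69% and 13.8%.

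The arrays with IFNb alone stood apart from the others in genes that mark the origin of the cells, which were looked at after the values were seen. Xist, the RNA that silences an X chromosome in female cells, was at the floor of the value table (15) on both IFNb-only arrays and between 604 and 1640 on the other 6 arrays. The Y-linked genes Ddx3y, Eif2s3y, Kdm5d and Uty were well above background on all 8 arrays. Eif2s3y measured 9017 and 8588 on the untreated arrays against 17937 at 7 h and 18148 at 2 h. Ddx3y, Kdm5d and Uty stayed within 2-fold, at log2 differences of 0.54, 0.50 and 0.72 at 7 h and 0.16, -0.05 and 0.16 at 2 h. In all, 56 of 19755 genes were not well above background on both IFNb-only arrays and were well above it on the other 6. Among them was the predicted gene LOC100047899, at 15 on both IFNb-only arrays and at 2985 to 4519 elsewhere. The same count was not made for other arrays, and genes lowered by IFNb would fall in this count too. The array with TCR 6 h and the array with IFNb before TCR 6 h both carried Xist, at 1274 and 604. IFNb and the source of the cells therefore cannot be told apart in the comparison with untreated cells.

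Markers of other cells differed as well. In the counts of markers, a gene is higher or lower when past 2-fold and above background as defined with the gene counts, a rule that 9.75% of all genes met as higher and 6.19% as lower. Of 9 CD8 T cell markers 0 passed 2-fold in either direction, and their log2 differences lay between -0.86 for Cd3e and 0.85 for Cd8a. Cd8b1 measured 215510 and 214880 untreated and 364280 at 7 h. Of 9 CD4 T cell markers 2 were higher, Il2ra (1.93) and Zbtb7b (1.11), and 1 lower, Ctla4 (-1.79). Cd4 itself stayed between 110 and 135. Of 14 B cell markers, 7 were at least 2-fold higher at 7 h and 0 lower, with summed signal of 23384 and 23121 untreated, 55369 at 7 h and 67000 at 2 h. Ms4a1, which encodes CD20, measured 3061 and 3086 untreated and 12748 at 7 h. Of 11 NK cell markers 7 were higher and 0 lower, with summed signal of 3682 and 3586 untreated and 17878 at 7 h, and Gzma, which T cells also make, gave 12582 of the latter. The NK receptor gene Ncr1 was at the floor on both untreated arrays and at 52.7 at 7 h. Among 16 myeloid markers 3 were higher and 6 lower, with summed signal of 15446 and 15607 untreated and 9706 at 7 h. Most of this drop was the granule enzyme gene Mpo, from 7168 and 7250 to 1481 (log2 -2.28). The summed erythroid signal was 28197 and 27846 untreated and 26475 at 7 h, with Car1 and Ahsp at log2 differences of -1.70 and -2.13 and Hbb-bt and Hba-a1 at 1.78 and 1.36. Fewer cells of a type and less RNA per cell cannot be told apart in these bulk samples, and the part of these cells in the gene differences given here was not tested.

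With 1 treated array there is no replicate error for the treatment and no test, so differences are described by their size. The only gauge of noise is the difference between the untreated arrays, which was about that of repeated spots within an array (robust SD 0.0452 against 0.0385 expected over 177 repeated probes). They were therefore counted as 1 sample and may be technical repeats. A gene was called higher when it passed 2-fold and was well above background at 7 h, and lower when it passed 2-fold and was well above background on both untreated arrays. By this rule 1927 genes (9.75%) were higher and 1223 (6.19%) lower, whereas between the untreated arrays 295 (1.49%) passed 2-fold in either direction, 207 (1.05%) higher on the second and 88 (0.445%) lower. At 4-fold, 538 genes (2.72%) were higher and 198 (1%) lower. Higher calls made up 61.2% of all calls, but 50.9% (1585 higher, 1530 lower) when each array was scaled to its median rather than its 75th percentile, since the median over all genes was then lower by 0.12. The direction of calls varied with resting signal. Of 2458 genes under a scaled signal of 32 at rest 535 were higher and 4 lower, but the floor of 15 and the background condition leave such genes almost no room to be called lower, and some entered through treated arrays alone. Lower calls outnumbered higher ones from 128 to 512 (350 and 300) and from 512 to 4096 (403 and 377), and over 4096 there were 265 higher and 170 lower. The SD of the difference between the untreated arrays was 0.49 under 32 and 0.07 over 4096. Of the higher calls, 227 were not well above background on either untreated array, and of the lower calls 221 were not well above background at 7 h, so their folds are given only as bounds.

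**Figure D2:**
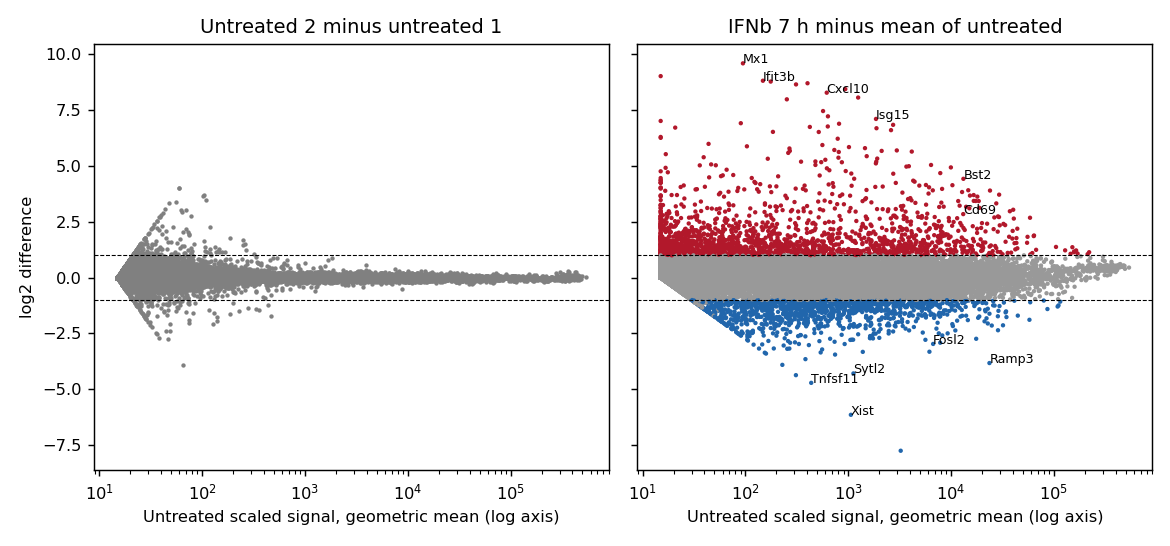
Log2 difference of each gene against its untreated scaled signal (log axis). The left panel shows untreated 2 minus untreated 1, and the right panel 7 h of IFNb minus the untreated mean, with genes called at least 2-fold higher in red and lower in blue and dashed lines at 2-fold; the SD between the untreated arrays is 0.07 over a signal of 4096 and 0.49 under 32, and Mx1, dim at rest, stands at a log2 of 9.60 at 7 h.

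Antiviral effectors were higher almost throughout. Here and in the lists that follow, counts stand beside the 9.75% of all genes that were higher and the 6.19% that were lower. Of 52 measured members 47 were at least 2-fold higher and 2 lower, with a median log2 difference of 4.09 against 0.10 over all genes and -0.01 between the untreated arrays. Mx1, a gene of the dynamin-like GTPase family, measured 96.0 and 93.3 on the untreated arrays and 73415 at 7 h. Its log2 difference of 9.60 was the highest among genes well above background on all 3 arrays. Rsad2, which encodes viperin, a radical SAM enzyme that makes a chain-terminating nucleotide, measured 416 and 389 untreated and 168090 at 7 h (log2 8.71). The untreated values of both genes lay close together and far below the treated one. Ifit1, which binds viral RNA at its 5′ end, went from 568 and 570 to 100420 (log2 7.46), and Ifit3 from 1295 and 1204 to 334920 (log2 8.07). Ifit3b (log2 8.82) and Ifit3 are near-identical copies with the same stretch of promoter sequence around their cores, so a probe for one can bind RNA of the other. Oas2, a synthetase of the oligoadenylates that activate RNase L, went from 627 and 643 to 95037 (log2 7.23). Ifi44 was not well above background on either untreated array and was at least 87.1-fold higher, at 1945. Bst2, which tethers budding virions, had a high resting signal of 13233 and 13137 and reached 283590 (log2 4.43). The members that were lower were Ifi27, from 46306 and 42940 to 13707 (log2 -1.70, against -0.01 at 2 h and 1.70 in the TCR 6 h pair), and Ifitm2, from 901 and 903 to 367 (log2 -1.29).

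The ISG15 pathway attaches the ubiquitin-like protein ISG15 to other proteins. All 5 measured genes of its conjugation were at least 2-fold higher at 7 h, with log2 differences from 3.43 to 8.66. Isg15 itself measured 1983 and 1750 untreated and 257090 at 7 h (log2 7.11). Usp18, the protease that removes ISG15 and also damps signalling at IFNAR2, went from 319 and 303 to 125300 (log2 8.66). Ube2l6, the conjugating enzyme, went from 178 and 153 to 6623 (log2 5.33), and Uba7, the activating enzyme, from 18550 and 18624 to 200190 (log2 3.43). The ligase gene Herc6 stood at 1032 and 1128 untreated and 18714 at 7 h (log2 4.12).

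Among 15 genes of the interferon receptors and their signal transducers, 5 were higher and 3 lower, with a median of 0.25. Stat2 went from 1025 and 1061 to 13285 (log2 3.67) and Irf9 from 9377 and 9685 to 32590 (log2 1.77). The receptor chain Ifnar2 stood at a log2 difference of 1.19 and Jak2 at 1.27, while Ifnar1 (0.25), Jak1 (0.07) and Tyk2 (0.95) did not pass 2-fold. The genes that were lower belong to other cytokine pathways: Ifngr2, a chain of the interferon gamma receptor, went from 8779 and 8348 to 3096 (log2 -1.47), and Stat5a and Stat5b, which act behind interleukin 2 and 7, stood at -1.14 and -1.12. Of 8 interferon regulatory factors 5 were higher and 0 lower, and of the 2 IRF2-binding proteins listed with them Irf2bp2 was higher (1.05). Irf7, which amplifies interferon production, went from 1889 and 1857 to 68518 (log2 5.19), and Irf1 from 40092 and 39376 to 169540 (log2 2.09). Feedback inhibitors were mixed, with 2 of 16 higher and 1 lower, beside 9.75% and 6.19% of all genes. Socs1, which blocks JAK kinases, went from 5078 and 5056 to 32983 (log2 2.70) and Cish from 606 and 588 to 2297 (log2 1.94), whereas Socs5 stood at -1.20 and Socs3 at 0.92.

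Sensors of foreign nucleic acid were broadly higher: 16 of 21 measured genes passed 2-fold upward and 0 downward, with a median of 2.02. Tlr7, the endosomal receptor for single-stranded RNA, measured 174 and 197 untreated and 17113 at 7 h (log2 6.53). The RIG-I-like helicase gene Dhx58 went from 545 and 577 to 34421 (log2 5.94), Ddx60 from 266 and 270 to 14802 (log2 5.79) and the Z-nucleic acid sensor Zbp1 from 3006 and 2931 to 154130 (log2 5.70). Tlr3, the receptor for double-stranded RNA, was at the floor of 15 on both untreated arrays and at 407 at 7 h, at least 18.2-fold higher.

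Interferon-inducible GTPases, which attack the vacuoles of intracellular pathogens, were all past 2-fold: 15 of 15 were higher, between log2 2.91 and 7.99, with a median of 4.08. Iigp1 measured 258 and 248 untreated and 64188 at 7 h (log2 7.99). Gbp6 stood at a log2 difference of 5.72, Gbp5 at 5.19 and Gbp2 at 4.68, the last going from 7948 and 7766 to 201810. Members of this family resemble each other in sequence, and a probe may bind RNA of more than 1 of them. The 7 measured Schlafen genes, a family tied to T cell quiescence and to restriction of viral translation, were also all higher, from log2 1.56 to 6.84. Slfn5 went from 2715 and 2752 to 314200. Slfn2, whose loss makes T cells leave quiescence, was already at 55415 and 54364 and reached 161980 (log2 1.56).

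Class I antigen presentation was higher in 18 of 26 genes and lower in 0, with a median of 1.42. The immunoproteasome subunits Psmb10, Psmb8 and Psmb9, which replace the catalytic subunits of the standard proteasome, stood at log2 differences of 2.71, 2.41 and 2.23. Psmb10 measured 29167 and 29371 untreated and 192050 at 7 h. The peptide transporter genes Tap1 and Tap2 stood at 2.07 and 1.55 and the loading chaperone Tapbp at 2.35. By contrast, 0 of 31 genes of the constitutive proteasome passed 2-fold, and their values lay between -0.37 and 0.86. Nlrc5, the transactivator of class I genes, went from 821 and 825 to 5577 (log2 2.76). Among the class I genes themselves the nonclassical H2-T24 stood highest, from 102 and 104 to 6106 (log2 5.88), and the classical H2-D1 went from 213640 and 212440 to 441740 (log2 1.05). The many class I genes are similar enough that probes may not separate them.

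**Figure D3:**
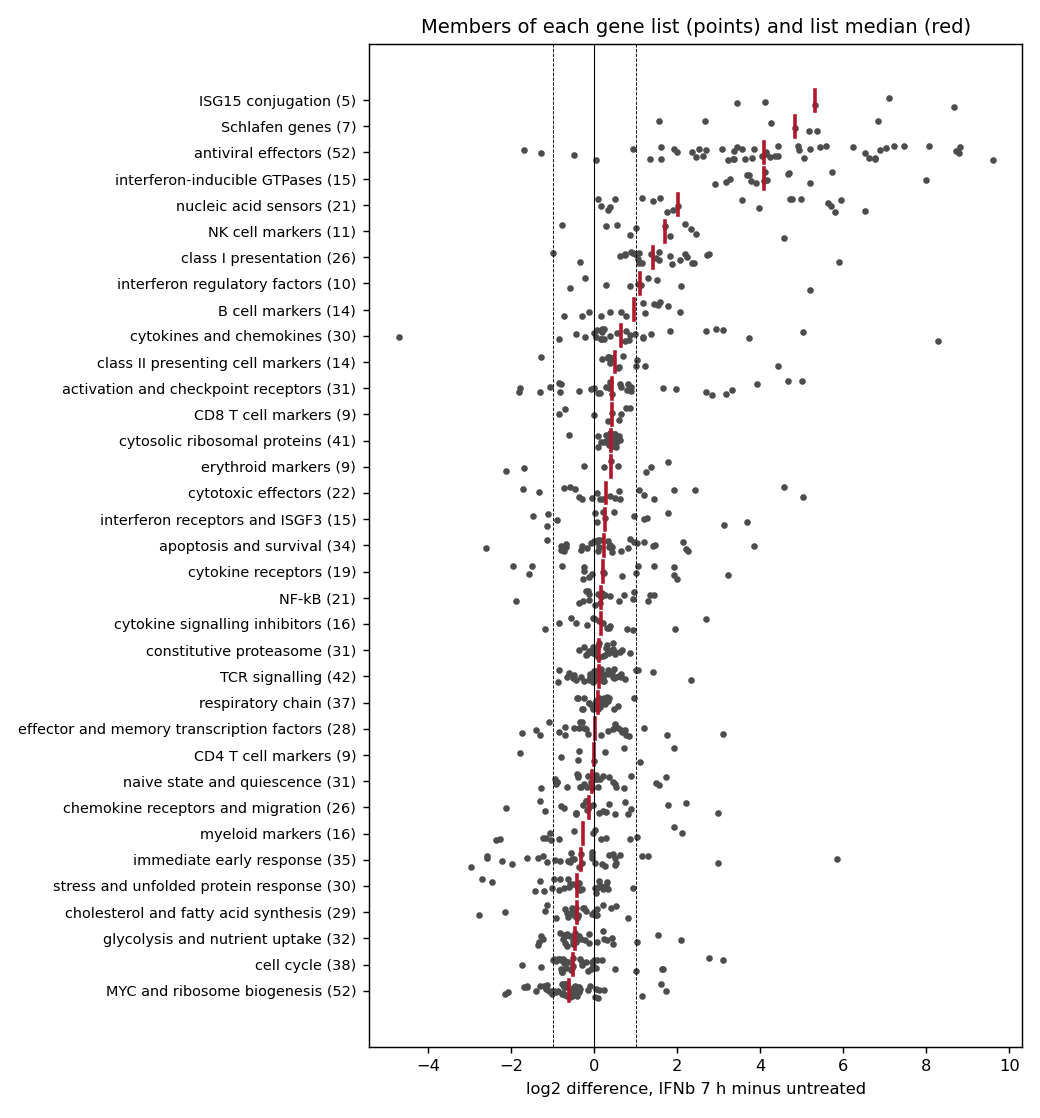
Log2 difference at 7 h of IFNb for every measured member of 35 gene lists (points), with the number measured in brackets, the list median as a red bar and dashed lines at 2-fold. Medians run from 5.33 for ISG15 conjugation to -0.62 for MYC and ribosome biogenesis, and the constitutive proteasome, respiratory chain and ribosomal protein lists hold no member past 2-fold.

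Cytokine genes with 7 h of IFNb included 10 of 30 that were higher and 1 that was lower, beside 9.75% and 6.19% of all genes. Cxcl10, which attracts cells bearing CXCR3, went from 625 and 612 to 192800 (log2 8.29), and Cxcl9 from 54.7 and 57.9 to 481 (log2 3.10). Tnfsf10, which encodes the death ligand TRAIL, went from 50.1 and 53.0 to 1688 (log2 5.03), and the macrophage growth factor gene Csf1 from 52.7 and 58.1 to 736 (log2 3.73). The gene that was lower was Tnfsf11, which encodes RANKL, from 437 and 436 to 16.7, not well above background, at least 17.6-fold lower. Ifng stood at 287 and 274 untreated and 313 at 7 h. Among 19 cytokine receptor genes 7 were higher and 3 lower, beside the same shares. The interleukin 12 receptor chain gene Il12rb1 went from 220 and 223 to 2077 (log2 3.23) and Il18r1 from 4093 and 4223 to 16448 (log2 1.98). Il2rb, the signalling chain shared by the receptors of interleukin 2 and 15, went the other way, from 20695 and 21642 to 5447 (log2 -1.96), as did Il21r (-1.58) and Il4ra (-1.51).

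Among 22 cytotoxic effector genes 7 were higher and 2 lower, beside 9.75% and 6.19% of all genes. Gzma went from 537 and 518 to 12582 (log2 4.58), Gzmb from 1811 and 1783 to 3780 (log2 1.07) and Gzmc from 75.2 and 86.7 to 435 (log2 2.43). The pore-forming Prf1 was lower, from 3225 and 4733 to 1192 (log2 -1.71), and its untreated values differed more than those of most bright genes. Of 31 activation and checkpoint receptors 9 were higher and 4 lower, beside the same shares. Ly6a, which encodes Sca-1, went from 3920 and 3854 to 123670 (log2 4.99), and Cd274, which encodes the inhibitory ligand PD-L1, from 1040 and 1103 to 27137 (log2 4.66). The costimulatory ligand gene Cd86 went from 351 and 425 to 5806 (log2 3.91). Cd69, which counters egress from lymph nodes, went from 13062 and 13213 to 94459 (log2 2.85). Cd44, Ctla4, Cd160 and Tnfrsf9 were lower, and Cd44 went from 2444 and 2438 to 698 (log2 -1.81).

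Of 31 genes of the naive state 3 were higher and 1 lower, with a median of -0.06, so the share that was higher was near the 9.75% of all genes. The quiescence factor gene Bach2 went from 5591 and 5918 to 16198 (log2 1.49). Tcf7 (-0.06), Il7r (0.20), Ccr7 (-0.89) and S1pr1 (-0.90), which guides exit from lymph nodes, stayed within 2-fold. Among 28 effector and memory transcription factors 3 were higher, also near the 9.75% of all genes, and 4 lower, beside 6.19%. Eomes went from 369 and 366 to 3162 (log2 3.10), while Tbx21, which encodes T-bet, stood at 273 and 275 untreated and 462 at 7 h (log2 0.75). Myb was lower, from 12881 and 11844 to 3686 (log2 -1.74).

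**Figure D4:**
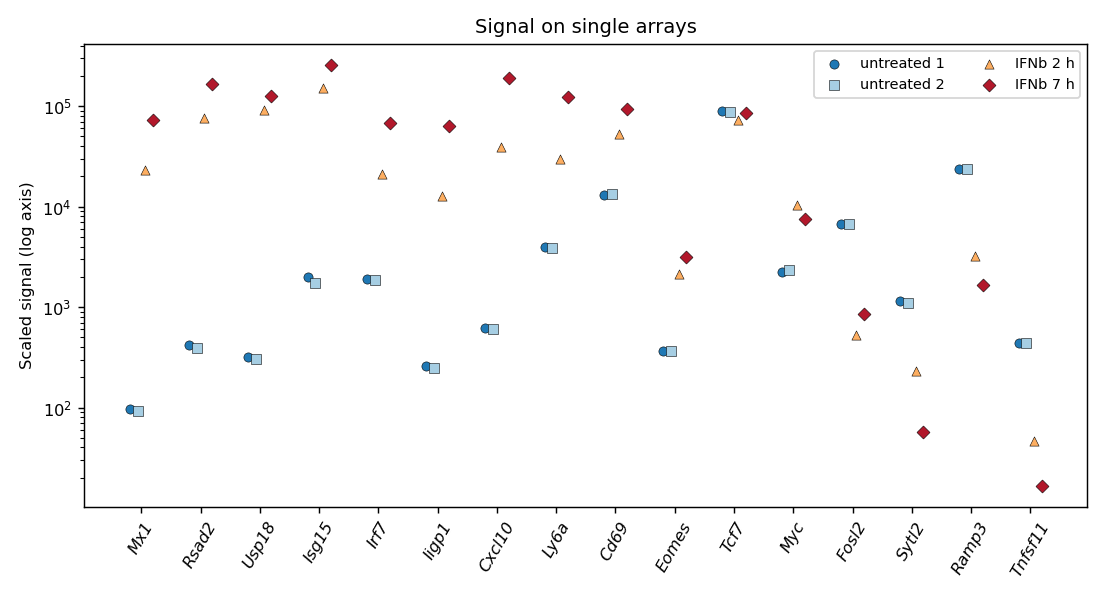
Scaled signal (log axis) of 16 genes on the untreated arrays (blue), at 2 h (orange) and at 7 h of IFNb (red), 1 point per array. Levels are not comparable between genes, since each has its own probe; the untreated points nearly coincide, and Mx1 reaches 73415 at 7 h while Ramp3 drops to 1666.

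Early response genes were split. Of 35 members 4 were higher and 9 lower, beside 9.75% and 6.19% of all genes, with a median of -0.32. Gadd45g, a growth arrest and stress response gene, went from 1012 and 1021 to 58586 (log2 5.85), and Jun from 372 and 367 to 2905 (log2 2.98). Fosl2, another AP-1 subunit, was lower, from 6705 and 6689 to 855 (log2 -2.97), as were the phosphatase gene Dusp10 (-2.59) and the nuclear receptor gene Nr4a2 (-2.59). In the NF-kB list, 3 of 21 were higher and Tnfaip3, the deubiquitinase A20, was lower, from 57104 and 58633 to 15628 (log2 -1.89). Among 34 genes of cell death and survival 8 were higher and 2 lower. The necroptosis effector Mlkl went from 135 and 134 to 1945 (log2 3.85) and the caspase genes Casp4, Casp1 and Casp8 stood at 2.27, 2.22 and 2.14, while the BH3-only gene Bmf went from 1553 and 1720 to 267 (log2 -2.62). Of 42 genes of TCR signalling 4 were higher, near the 9.75% of all genes, and 0 lower.

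Several lists of growth and metabolism had medians below 0. Their counts stand beside 9.75% of all genes that were higher and 6.19% that were lower. Of 52 genes of MYC and ribosome biogenesis 13 were at least 2-fold lower and 3 higher, with a median of -0.62, and their value was above 0 in 8. The ribosome assembly gene Rrp12 went from 838 and 829 to 187 (log2 -2.15) and the polyamine enzyme gene Odc1 from 86664 and 86479 to 32648 (log2 -1.41). Myc itself was higher, from 2227 and 2350 to 7532 (log2 1.72). The 41 ribosomal protein genes had a median of 0.41 and none passed 2-fold. This median was -0.05 after quantile normalization, so their direction depends on the scaling. Among 32 genes of glycolysis and nutrient uptake 3 were higher, led by the hexokinase gene Hk1 (log2 2.08), and 4 lower. Stress genes were lower in 6 of 30 and higher in 0, with the chaperone genes Hspa1a and Hspa1b at -2.70 and -2.47. Cholesterol and fatty acid synthesis was lower in 4 of 29 and higher in 0, led by the desaturase gene Scd2 (-2.79) and the carboxylase gene Acaca (-2.14). In the cell cycle list, 5 of 38 were higher and 2 lower. The D-type cyclin gene Ccnd2 went from 15092 and 15031 to 129710 (log2 3.11), and E2f1 from 505 and 520 to 153 (log2 -1.74). None of the 37 respiratory chain genes passed 2-fold.

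The 12 named genes with the lowest values that stayed above background on all 3 arrays came mostly from outside these lists. Sytl2, a regulator of vesicle docking, went from 1149 and 1099 to 57.4 (log2 -4.29). Ramp3, a partner of receptors for calcitonin-like peptides, went from 23572 and 23690 to 1666 (log2 -3.83). The metallothionein gene Mt1 went from 6211 and 6112 to 617 (log2 -3.32). Spag4, Gatm, Acer2, Grb10, Gls2, P4ha2, Zfyve28 and Mcam stood between -3.65 and -2.97. All 12 were also below untreated at 2 h, between -3.67 for Fosl2 and -0.90 for Mcam. The values at 2 h rest on the same untreated arrays, and both IFNb-only arrays lacked Xist, so they give no separate support. In the TCR 6 h pair, which shares no array with the comparison at 7 h, the 12 lay between -2.08 for Gls2 and 1.13 for Mcam.

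Genes at least 4-fold higher lay near each other on the chromosomes. With probe positions in build mm9, and with chromosome 18 left out, 194 of 528 such genes (36.7%) had another within 100 kb, while 7.81% of all genes lay as close to one. The stretch with the most members was the Schlafen cluster at chr11:82755854-83073951, with 11 entries between log2 2.46 and 6.84. Beside the Schlafen genes these include Unc45b and clone or predicted identifiers. The Oas cluster at chr5:121180434-121371569 held 8 and the Ly6 cluster at chr15:74767749-74938695 held 7. The Ifit cluster at chr19:34650244-34723855 held 6, all between 5.44 and 8.82. These stretches hold families of duplicated genes, so some neighbours may share signal through similar probes. Entries known only by clone or predicted identifiers, also in the Ly6 and Ifit clusters, were counted as genes. Some of them may be further probes of a named neighbour, which would raise the share with a neighbour. Of 191 genes at least 4-fold lower, 18.3% had another within 100 kb, against 3.54% of all genes.

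Values after 2 h of IFNb are set beside those at 7 h, both against the same untreated arrays. At 2 h 1856 genes (9.41%) were higher and 824 (4.18%) lower. The median of the antiviral effectors was 2.73 at 2 h and 4.09 at 7 h, that of the GTPases 3.39 and 4.08, and that of class I presentation 0.63 and 1.42. Ifit1 stood at 7.76 at 2 h and 7.46 at 7 h, Socs1 at 3.21 and 2.70, Irf1 at 2.63 and 2.09, and Socs3 at 2.03 and 0.92. Some genes stood far lower at 2 h than at 7 h: Ddx60 stood at 0.71 and 5.79, Ube2l6 at 1.43 and 5.33, Cd86 at -0.29 and 3.91, Nlrc5 at -0.41 and 2.76, and Gzmc at -0.83 and 2.43. Fap, a surface protease gene, and Snai1, a transcription factor gene, were at the floor of 15 at 2 h and at 1183 and 330 at 7 h, at least 52.9-fold and 14.8-fold above untreated. The change between 2 h and 7 h has 1 array a time and no test.

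The TCR 6 h arrays compare cells with and without IFNb over arrays that are not part of the comparison at 7 h. If the hours in the labels add, their cells too were harvested 7 h after IFNb. With IFNb, 298 genes (1.51%) were at least 2-fold higher and 472 (2.40%) lower than with TCR alone. The share that was higher in this pair increased with the size of the difference at 7 h: 2.38% of genes 2 to 4-fold higher, 7.59% of those 4 to 8-fold higher, 33.3% of those 8 to 16-fold higher and 68.5% (76 of 111) of those over 16-fold higher. The choice of genes is not separate, since a probe could enter through any 2 of the 8 arrays. A gene dim elsewhere could enter through the 7 h array and the array with IFNb and TCR 6 h, and would tend to be high in both. Of the genes at least 2-fold lower at 7 h, 3.45% were lower in the pair, near the 2.40% of all genes, and of the 198 at least 4-fold lower 6.06% (12) were. The genes higher in both numbered 170, which is 8.82% of the higher calls at 7 h and 57.0% of those in the pair. With genes required to be well above background on the 7 h and both untreated arrays, 143 were higher in both. The genes lower in both numbered 42 (3.43% and 8.90%). In opposite directions, 67 genes were higher at 7 h and lower in the pair (3.48% and 14.2%), and 20 were lower at 7 h and higher in the pair (1.64% and 6.71%). Across 19706 genes, which are not independent replicates, Pearson's r between the differences was 0.20 and Spearman's rho -0.018.

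Gene families differed in what they showed beside TCR stimulation. The antiviral effectors had a median of 1.96 in the pair, ISG15 conjugation 2.83 and the Schlafen genes 2.08, whereas the GTPases had 0.61 and class I presentation 0.28. Isg15 measured 4727 with TCR alone and 73219 with IFNb and TCR, beside 1983 and 1750 untreated. Irf7 measured 259 and 4323, beside 1889 and 1857 untreated. With TCR alone Isg15 was thus above its untreated signal and Irf7 below it. Iigp1 measured 7486 and 11735, and Gbp2 35579 and 40150, and with TCR alone both were above their untreated signal too. The same held for Cd274, at 20065 and 22828 (log2 0.19), Ly6a at 36129 and 41493 (0.20) and Cd69 at 209520 and 244540 (0.22). Irf1 measured 34497 and 34565 and Eomes 787 and 759, without a difference past 2-fold. How the signal with TCR alone bears on the differences in the pair was not tested. The B cell markers had a median of -0.00 in the pair and the NK cell markers 0.11. Summed B cell signal was low there, at 6741 and 7502, beside 23384 and 23121 untreated. Summed NK cell signal was 2220 and 2773, beside 3682 and 3586 untreated. Ncr1 and Klrb1b were at the floor of 15 on both arrays, where no difference can show. Whether the cells of the pair differed in source was not tested. The median of MYC and ribosome biogenesis was 0.08, against -0.62 at 7 h. The promoters of genes higher in both held the ISRE core in 32.8% of 128, and those of genes higher at 7 h and not in the pair in 6.64% of 1204. These sets were not matched for the size of the difference at 7 h. By that size alone the share ran from 5.11% (2 to 4-fold) to 44.8% (over 16-fold).

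**Figure D5:**
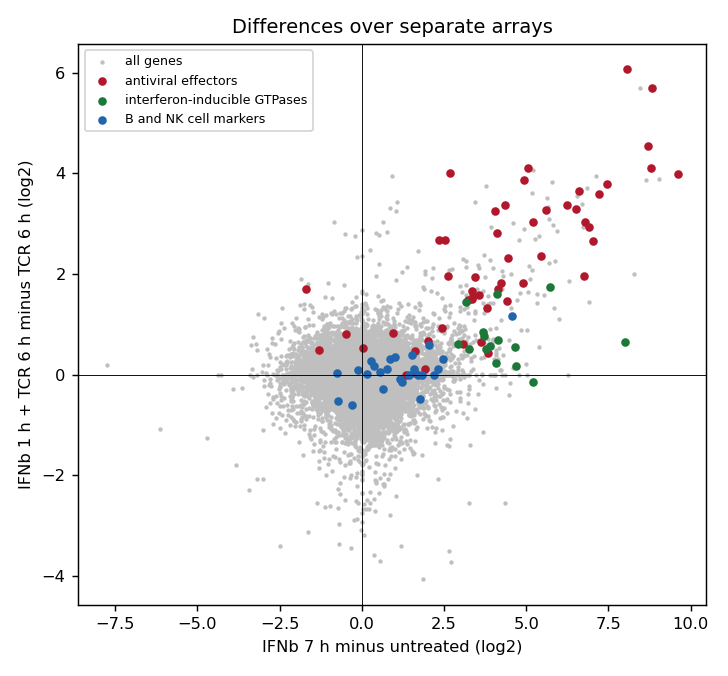
Log2 difference at 7 h of IFNb against untreated (horizontal) and of IFNb with TCR 6 h against TCR 6 h alone (vertical), 1 point per gene, over arrays that are not shared. Antiviral effectors (red) lie high on both axes, with medians of 4.09 and 1.96. GTPases (green) lie high at 7 h and at a median of 0.61 in the pair. B and NK cell markers (blue) have medians of -0.00 and 0.11 in the pair, with Gzma at 1.17.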

How the data were processed

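Total RNA was labelled and hybridised to 8 Agilent mouse arrays in 1 colour (2 slides of 4 arrays). The authors' scanner files give background-subtracted, detrended intensity, per the file headers from Agilent Feature Extraction 10.7.3.1 (9.5.3.1 per the submitters' processing notes). The deposited value table, used here, is also intensity: each of its columns equalled 1 array's processed signal times 1 factor, with values under 15 set to 15, so scale and direction are known. Its column medians were 89.6 and 92.2 (untreated), 100.6 (IFNb 7 h), 102.4 (IFNb 2 h), 80.7 (TCR 6 h), 73.8 (IFNb with TCR 6 h), 92.6 and 95.8 (TCR 1 h without and with IFNb). The TCR 1 h columns matched each other's scanner file and entered no log2 difference. They did enter the background filter on probes. They also entered the values and counts given over all 8 arrays or over the 6 arrays other than the IFNb-only ones.

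Outlier and control spots were left out and spots of a probe averaged as log2. Genes over or under 2-fold were counted, with no test. The smallest two-sided exact permutation p for 1 array against 2 is 0.333. limma 3.58.1 (R 4.3.3) served for 1 alternative and normexp. The 2-fold rule, without its background condition, was tried on simulated data. Noise there came from the untreated arrays, so that run does not gauge error between separate samples.

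A bound is the bright value over the lowest signal well above background on the dim arrays, or the dim probe's own signal if higher. Genes were named by rule: the 12 highest and 12 lowest, the 6 highest by bound, a fixed set, and from every list its 4 largest differences. Where a list had 5 or fewer genes in a direction, or a gene is outside the rule, it was chosen after its values were seen. The members and the 35 gene lists were chosen with earlier results of these data known. Alternatives covered scaling, background correction, filters, probe choice, the call rule and each untreated array. Signal over background limits the precision, as does the number of arrays.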

Additional observations from a re-analysis of the deposited data

Results flagged for a closer look

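The genes given here, taken from the named genes and the gene lists, were past 2-fold in opposite directions at 7 h of IFNb alone and in the TCR 6 h pair. They are among 67 genes that were higher at 7 h and lower in the pair and 20 that were lower at 7 h and higher in the pair. The difference between the comparisons was not tested, and each side has 1 treated array. Gzmc stood at 2.43 at 7 h and -1.11 in the pair, where its signal was 18737 with TCR alone and 8675 with IFNb. Cxcr6, a chemokine receptor gene, stood at 2.22 and -1.13, the pyruvate dehydrogenase kinase gene Pdk1 at 1.03 and -1.15, and the myeloid gene S100a9 at 1.04 and -2.41. Ifi27 stood at -1.70 and 1.70. Mcam, an adhesion molecule gene, stood at -2.97 and 1.13, and the erythroid gene Ahsp at -2.13 and 1.03.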

How the results depend on the processing

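Counts of calls moved by over 1.5 times with normexp background correction, to 1162 higher and 534 lower, of which 1151 and 518 were among the calls given in the report. With it, 110 genes were higher and 12 lower both at 7 h and in the TCR 6 h pair. Requiring a scaled signal of 200 in the brighter group, an alternative added after seeing the data, left 1160 higher calls, and 22 genes lower in both. limma with the untreated arrays as 2 samples called 4661 genes higher and 4026 lower at an adjusted p under 0.05, a spread that comes from arrays that may be technical repeats of 1 sample. Leaving out 1 untreated array gave 1825 to 2260 higher and 1289 to 1333 lower calls. The untreated array on the slide of the 7 h array gave the lower of the former and the higher of the latter. Under the other alternatives the counts stayed within 1.5 times. Of 144 named genes called, 134 to 144 kept their call under every alternative that measured all of them, and 0 changed sign. No paired analysis was possible because only the untreated group has more than 1 array and no number joins it to the treated array. Limits are the single treated array, the origin of the cells, and signal over background, since dim genes differed more between the untreated arrays.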

Other observations

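Cyp1a1 and Ahrr, a pair of dim genes picked after their values were seen, were above the floor mainly on the IFNb-only arrays. Cyp1a1, a target of the aryl hydrocarbon receptor, was between 15 and 17.8 on the other 6 arrays, at 101 at 2 h and at 308 at 7 h. Ahrr, the repressor of the receptor, was at 15 on all 6 other arrays, at 56.4 at 2 h and at 84.9 at 7 h. Ahr, which encodes the receptor, did not pass 2-fold, at -0.34 at 7 h and 0.52 at 2 h.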
